A study of Mus musculus with 6 samples.

Results

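The 9 genes described here move glutamate and glutamine across the cell membrane or convert the one into the other, and they were chosen by name from the 32285 genes of the count tables. Glutamate released at synapses is cleared mainly by astrocytes, through the transporters GLT-1 (*Slc1a2*) and GLAST (*Slc1a3*). Inside the astrocyte, glutamine synthetase (*Glul*) turns it into glutamine, which leaves through carriers of the SLC38 family and is taken up by neurons to remake glutamate. Glutamate dehydrogenase (*Glud1*) instead feeds it into the tricarboxylic acid cycle, the cystine–glutamate exchanger xCT (*Slc7a11*) trades it for cystine, and ASCT1 (*Slc1a4*) carries neutral amino acids such as serine.

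The cells were sorted from the amygdala of young adult male wild-type C57BL/6N mice, taken 90 min after the behavioural procedure began. They were sorted as ACSA-2-positive cells stained also for CD11b, CD45 and O1. ACSA-2 is an epitope of ATP1B2, and the other antibodies mark myeloid, blood and oligodendrocyte cells. NoFC mice explored the habituated chamber without shock and FC mice received foot shocks there. NoFR mice were conditioned and stayed in the home cage 1 day later, whereas FR mice were conditioned and returned to the chamber on that day. The sources do not say from what event the 90 min were counted in NoFR mice. All tissue was dissociated in actinomycin D, triptolide and anisomycin, which block transcription and translation. The study's conditioning protocol included 4-hydroxytamoxifen after the task, and the sources do not say whether these wild-type mice received it. Cells of several mice were pooled in each of 3 single-cell libraries, so that the group of a cell is known only through a hashtag antibody.

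Barcodes with at least 500 genes and under 6% mitochondrial unique molecular identifiers (UMIs, which count captured RNA molecules) numbered 11103 of 13546. Of these, 7550 were taken as astrocytes, with at least 5 UMIs of *Gja1* and *Aldoc* together and at most 3 of *Vtn* and *Rgs5*, and 2264 as pericytes, with at least 10 and at most 2 UMIs of the same pairs in the opposite order. The remaining 1289 barcodes met neither rule. Astrocytes numbered 3047, 2133 and 2370 and pericytes 879, 663 and 722 in libraries 1, 2 and 3. The astrocyte gate was not sharp, since 381 astrocytes had 5 to 7 UMIs of the gate genes and 499 barcodes missed it with 3 to 4. The median astrocyte had 10177 to 10892 UMIs and the median pericyte 4890 to 5232, whereas the barcodes of neither class had a median of 861 UMIs in library 3 against 7220 and 7791 in the others. Libraries shared 18 barcode sequences in all, summed over the pairs of libraries. The summed level of 12 astrocyte markers outside the gate was 8683 to 8970 CPM (UMIs per 1000000 UMIs of the same sum) in astrocytes and 761 to 823 in pericytes, and that of 7 pericyte markers was 113 to 128 and 7624 to 7837. The 12 astrocyte markers include *Atp1b2*, the sort antigen, whose pericyte level was 73.2% to 78.4% of its astrocyte level. The other 11 stood at no more than 2.36%. Smooth muscle markers reached 149 to 199.7 CPM and endothelial markers 135 to 145 CPM in the pericyte class, against at most 0.835 and 5.99 CPM in astrocytes. Neuron markers summed to at most 9.73 CPM, microglia markers to 19.9 CPM, oligodendrocyte markers to 10.5 CPM and oligodendrocyte precursor markers to 23.0 CPM in astrocytes, fibroblast markers to 13.8 CPM and ependymal markers to 0.835 CPM.

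On GRCm38, in the GENCODE vM21 annotation, *Slc1a2* spans chr2:102658659-102790784 on the plus strand and *Slc1a3* spans chr15:8634124-8710764 on the minus strand. *Slc1a4* lies at chr11:20302180-20332713, *Glul* at chr1:153899944-153909723, *Glud1* at chr14:34310727-34345265, *Slc38a3* at chr9:107650634-107669530 and *Slc7a11* at chr3:49892526-50443614. The neighbours *Slc38a1* (chr15:96571418-96642913) and *Slc38a2* (chr15:96687392-96699730) lie on the same chromosome as *Slc1a3*. All are protein-coding. RefSeq promoters of 300 bases, 250 before and 50 after the transcription start on GRCm38.p6, were on hand for 7 of the 9 genes. Those of *Slc1a2* (chr2:102706188-102706487, plus strand, inside the GENCODE gene), *Slc1a3* (chr15:8710758-8711057, minus strand) and *Slc38a2* (chr15:96699679-96699978, minus strand) are shown because these genes took opposite sides of the comparison between astrocytes and pericytes. Capitals mark matches, on either strand, to TTGGC (part of the site of NFI factors), TGACG (part of the cAMP response element), ACAAAG (a SOX site) or TATAAA (the TATA box).

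*Slc1a2* promoter: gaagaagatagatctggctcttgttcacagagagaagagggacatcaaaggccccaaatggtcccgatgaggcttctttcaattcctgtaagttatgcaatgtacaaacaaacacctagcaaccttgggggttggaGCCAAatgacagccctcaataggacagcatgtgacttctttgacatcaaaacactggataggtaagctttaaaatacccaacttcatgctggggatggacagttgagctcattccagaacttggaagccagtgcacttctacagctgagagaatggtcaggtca
*Slc1a3* promoter: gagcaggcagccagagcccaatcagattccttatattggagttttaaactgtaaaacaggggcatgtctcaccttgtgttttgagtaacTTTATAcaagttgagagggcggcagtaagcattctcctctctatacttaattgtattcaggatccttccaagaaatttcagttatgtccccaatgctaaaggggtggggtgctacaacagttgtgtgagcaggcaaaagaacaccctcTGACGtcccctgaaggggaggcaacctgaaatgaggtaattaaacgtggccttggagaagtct
*Slc38a2* promoter: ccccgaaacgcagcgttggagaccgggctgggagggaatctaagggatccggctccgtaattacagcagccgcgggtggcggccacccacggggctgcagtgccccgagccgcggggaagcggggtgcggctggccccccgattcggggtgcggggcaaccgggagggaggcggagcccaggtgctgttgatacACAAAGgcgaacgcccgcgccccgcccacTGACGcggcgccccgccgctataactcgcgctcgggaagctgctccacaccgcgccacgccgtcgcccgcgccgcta

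The *Slc1a2* and *Slc1a3* promoters had a GC content of 45.7% and 45.3%, with 1 and 3 CpG dinucleotides, whereas that of *Slc38a2* had 73.0% GC and 41 CpG dinucleotides. The medians over 32851 promoters were 52.7% and 7. Members higher in astrocytes lay on both sides of these medians. The *Glud1* promoter had 81.0% GC and 51 CpG dinucleotides, above that of *Slc38a2*. Those of *Slc1a4* had 65.0% and 21, of *Glul* 64.3% and 17 and of *Slc7a11* 44.7% and 4. The *Slc1a2* window held 1 TTGGC match, the *Slc1a3* window 1 TGACG and 1 TATAAA match, and the *Slc38a2* window 1 TGACG and 1 ACAAAG match. The TATAAA match lies on the strand opposite to the one printed, where it reads TTTATA. Whether any match works as a site was not tested. Such matches are common, since TTGGC occurred in 46.7%, TGACG in 20.8%, ACAAAG in 18.7% and TATAAA in 13.6% of all promoters. Among the other promoters, *Glul* and *Slc7a11* each held 2 TTGGC matches, *Slc1a4* held 1 and *Glud1* none. *Slc1a4* also held 1 TGACG match and *Slc7a11* 1 ACAAAG match.

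To ask how far these genes separate astrocytes from the pericytes collected by the same sort, UMIs were summed per library and class and compared by edgeR's quasi-likelihood test with the library as a block. Of 15130 genes tested, 12031 (79.5%) passed an adjusted p of 0.05, 42.1% higher and 37.4% lower in astrocytes, so passing the test is common between these classes. All 8 members that could be tested were called, 7 higher and 1 lower in astrocytes, with a median log2 fold change of 4.85 against 0.08 over all genes tested. Without normalization factors beyond the total UMIs, the median of all genes moved to −0.14, and each member kept its direction. The balance over all genes then turned round, with 5357 higher and 6781 lower in astrocytes. The fold changes below include these factors and the CPM do not. Levels below are CPM of the summed UMIs, and since UMIs mark transcript ends they are compared between cells and not between genes.

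*Slc1a2* showed the widest separation of the members. It stood at 8552, 8731 and 8461 CPM in the astrocytes of libraries 1, 2 and 3 and at 84.3, 90.8 and 144 CPM in their pericytes. The groups lay far apart, and the pericytes of library 3 were the highest of that class. The log2 fold change was 6.57 (SE 0.114, adjusted p = 3.5e-25 by edgeR). *Slc1a3* stood at 3907, 4072 and 3813 CPM in astrocytes against 126, 126 and 131 CPM in pericytes. Its libraries were even in both classes, and the log2 fold change was 5.16 (SE 0.074). *Slc1a4*, the neutral amino acid carrier of the same family, was nearer between classes, at 148, 158 and 156 CPM in astrocytes and 42.0, 35.8 and 33.1 CPM in pericytes. The classes did not overlap, with a log2 fold change of 2.26 (SE 0.075).

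Of the enzymes, *Glul* stood at 1829, 1777 and 1875 CPM in astrocytes and at 87.0, 93.8 and 95.4 CPM in pericytes, a log2 fold change of 4.53 (SE 0.067). *Glud1* stood at 904, 886 and 914 CPM in astrocytes and at 331, 348 and 319 CPM in pericytes, a log2 fold change of 1.66 (SE 0.053). Both enzymes were thus higher in astrocytes in every library, and *Glud1* had the smallest difference of the 7 genes that were higher.

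The SLC38 carriers did not move together. *Slc38a3* (SNAT3), which releases glutamine from astrocytes, stood at 115, 120.5 and 117 CPM in astrocytes and at 3.35, 2.50 and 2.36 CPM in pericytes, the latter from 15, 9 and 9 UMIs. Its log2 fold change was 5.62 (SE 0.123). *Slc38a2* (SNAT2), which takes neutral amino acids into cells, went the opposite way, with 3.83, 3.85 and 4.42 CPM in astrocytes and 27.9, 38.0 and 34.4 CPM in pericytes. These levels came from 127, 95 and 111 astrocyte UMIs and 125, 137 and 131 pericyte UMIs, and the log2 fold change was −2.82 (SE 0.131, adjusted p = 3.9e-16 by edgeR). *Slc38a1* (SNAT1), known as a neuronal glutamine carrier, was too low to be tested. It had 45, 5 and 13 UMIs in astrocytes, or 1.36, 0.203 and 0.517 CPM, and 3, 2 and 2 UMIs in pericytes. Its astrocyte UMIs were unevenly spread, since the 63 UMIs lay in 31 of 7550 cells.

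*Slc7a11*, the cystine–glutamate exchanger, stood at 535, 551 and 589.9 CPM in astrocytes and at 9.37, 16.4 and 23.9 CPM in pericytes. Library 3 was the highest in both classes, and the log2 fold change was 5.33 (SE 0.104).

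**Figure D1:**
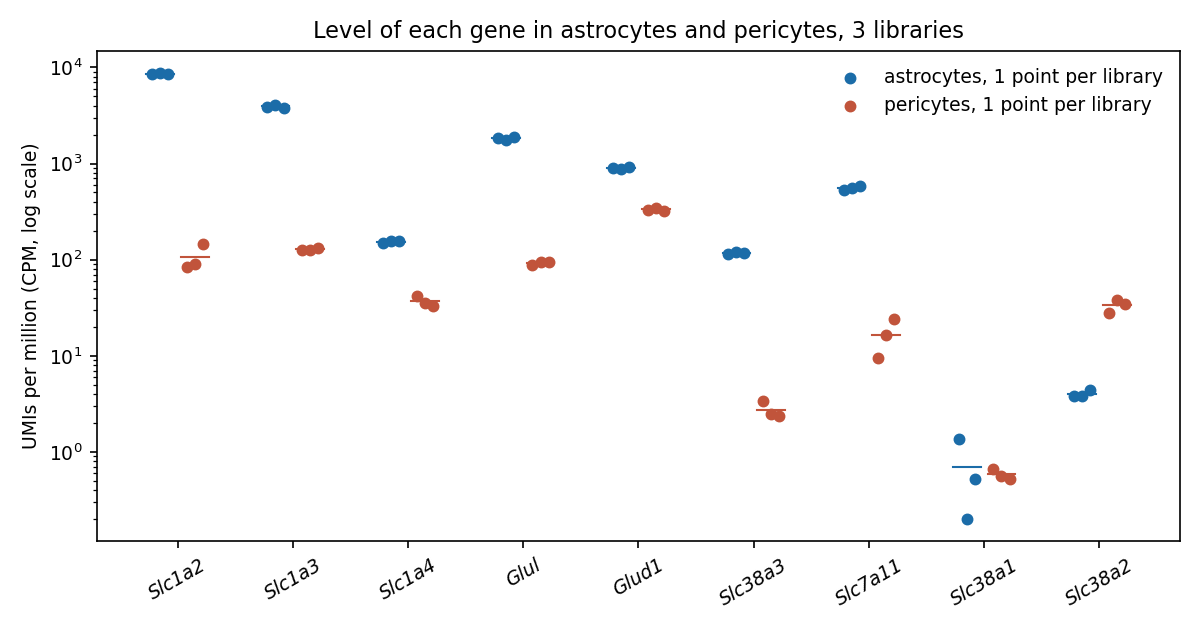
Level of each gene in CPM (log scale) in astrocytes (blue) and pericytes (red), with 1 point per library and a line at the mean of 3 libraries. The classes lie apart for every gene except *Slc38a1*, and *Slc38a2* is the gene with the higher level in pericytes, at 27.9 to 38.0 CPM.

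In the barcodes of neither class, the glutamate transporters lay between the 2 classes, at 6225 to 6855 CPM for *Slc1a2* and 2671 to 2916 CPM for *Slc1a3*. *Slc38a1* had 17.5, 5.45 and 13.7 CPM there, above both classes in each library, and *Slc38a2* had 20.0 to 23.7 CPM. Astrocyte markers summed to 4174 to 5034 CPM in these barcodes, against 8683 to 8970 CPM in astrocytes. Neuron markers summed to 31.1 to 60.1 CPM in these barcodes, against 6.77 to 9.73 CPM in astrocytes. Pericyte markers summed to 535 to 759 CPM there, against 113 to 128 CPM in astrocytes. Endothelial markers reached 7.08 to 156 CPM, against at most 5.99 CPM, and smooth muscle markers 3.89 to 47.6 CPM, against at most 0.835 CPM. Fibroblast markers summed to 21.5 to 31.9 CPM, against 7.45 to 13.8 CPM, and oligodendrocyte markers to 12.4 to 20.2 CPM, against 9.93 to 10.5 CPM. Other lists were not raised in this way. Microglia markers summed to 9.96 to 15.7 CPM, against 16.3 to 19.9 CPM in astrocytes. Ependymal markers summed to at most 0.389 CPM, against 0.633 to 0.835 CPM. Oligodendrocyte precursor markers overlapped, at 19.7 to 30.7 against 20.1 to 23.0 CPM. The part of any of these lists in the *Slc38a1* level was not tested.

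In droplet data, free RNA gives UMIs in cells that do not express a gene, so the pericyte level of each member was set beside that of the astrocyte markers. Apart from *Atp1b2*, the sort antigen, whose pericyte level was 73.2% to 78.4% of the astrocyte level, the markers stood in pericytes at 0.477% to 2.36% of their astrocyte level, with a median of 1.45%. *Slc1a2* stood at 0.986%, 1.04% and 1.70% in libraries 1, 2 and 3, inside that range in each. *Slc38a3* stood at 2.92%, 2.07% and 2.02% in libraries 1, 2 and 3, of which the first is above the range. *Slc7a11* stood at 1.75%, 2.97% and 4.05%, above it in libraries 2 and 3. *Slc1a3*, at 3.09% to 3.44%, and *Glul*, at 4.76% to 5.28%, were above the range in every library. *Slc1a4* kept 21.3% to 28.3% and *Glud1* 34.9% to 39.2% of the astrocyte level in pericytes, and *Slc38a2* reached 729% to 988%. A stricter class gate asked for at least 10 UMIs of *Gja1* and *Aldoc* and at most 1 of *Vtn* and *Rgs5* in astrocytes, and for at least 20 and 0 UMIs of the pairs in the opposite order in pericytes. Under it the markers other than *Atp1b2* stood at 0.365% to 2.36%. The mean over libraries went from 3.25% to 2.96% for *Slc1a3*, from 5.04% to 4.70% for *Glul*, from 2.34% to 1.72% for *Slc38a3* and from 2.93% to 2.21% for *Slc7a11*. *Slc7a11* then stood at 1.76%, 2.77% and 2.11%, above the marker range in library 2 and no longer in library 3, and *Slc38a3* at 3.15% in library 1, above the range, and at most 1.19% in the others.

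**Figure D2:**
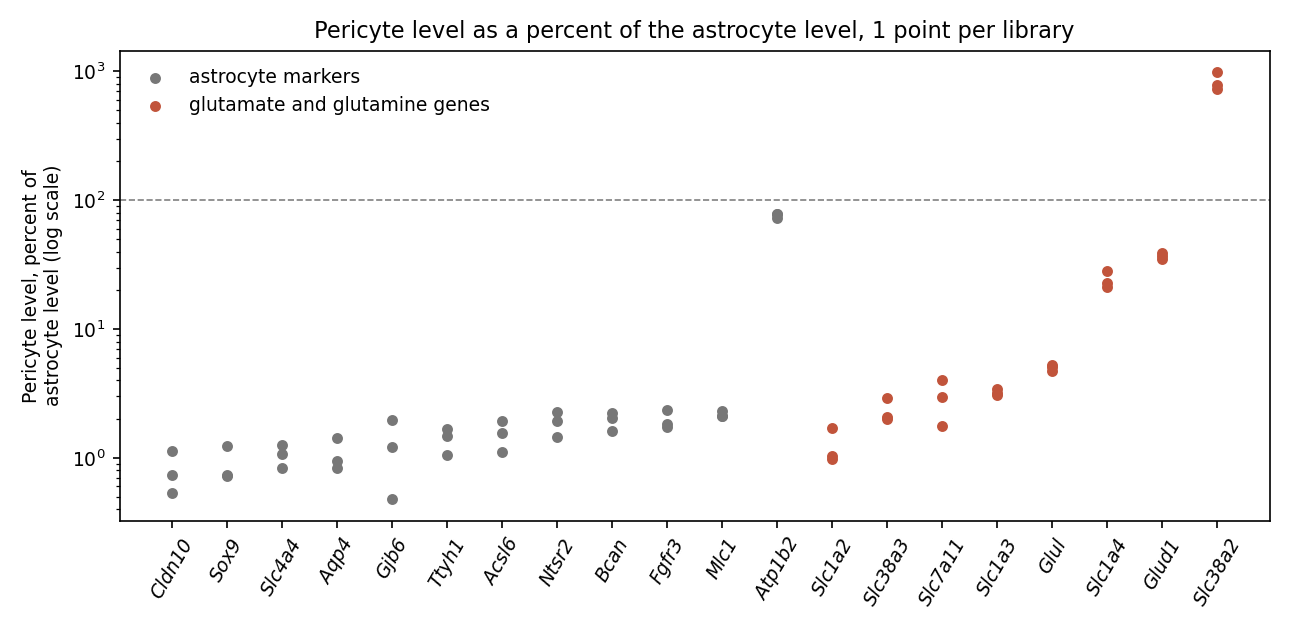
Pericyte level as a percent of the astrocyte level (log scale), with 1 point per library for 12 astrocyte markers (grey) and 8 members (red), and a dashed line where both levels are equal. *Slc1a2* lies among the markers, *Slc1a4* and *Glud1* lie well above all of them except *Atp1b2*, and *Slc38a2* lies above the line.

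The share of single cells with a UMI followed the same order of classes. At least 1 *Slc1a2* UMI was seen in 7549 of 7550 astrocytes and in 742 of 2264 pericytes, and a *Slc1a3* UMI in 7526 astrocytes and 817 pericytes. With each cell thinned to 3000 UMIs, which left out 226 astrocytes and 135 pericytes, the mean share of pericytes with a *Slc1a2* UMI went from 32.8% to 21.2% and that of astrocytes with a *Slc7a11* UMI from 91.9% to 71.5%. For *Slc38a3* the mean share of astrocytes was 64.9%, or 28.6% after thinning, and that of pericytes 1.16%, or 0.644%. *Glud1* was seen in 98.4% of astrocytes and 74.0% of pericytes, or 90.8% and 59.5% after thinning. *Slc38a2* was seen in 3.47% of astrocytes and 13.6% of pericytes, or 1.24% and 9.39%, so its order held at equal depth. By comparison, the 11 astrocyte markers other than *Atp1b2* were seen in 1.62% (*Sox9*) to 8.27% (*Slc4a4*) of pericytes. After thinning the range was 0.921% to 5.02%. The water channel *Aqp4*, among them, was at 2.94%, or 1.69% after thinning. Such a share rises with the level of the gene, and *Slc1a2* had 712096 UMIs in astrocytes against 181291 for *Slc4a4*. The marker shares therefore set no background for *Slc1a2*.

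Of 36 further genes of glutamate and glutamine handling, 34 were in the count tables and 28 could be tested. Of these, 13 were higher, 9 were lower and 6 did not pass, where 42.1% of all genes tested were higher and 37.4% lower. The median log2 fold change was 0.13 against 0.08 over all genes tested, so as a set they were near the genes at large. The 3 highest in astrocytes were *Slc25a18*, a mitochondrial glutamate carrier, at 6.27 (SE 0.114), *Slc7a10*, a carrier of small neutral amino acids, at 6.23 (SE 0.097), and *Gpt2*, an alanine aminotransferase, at 5.50 (SE 0.12). *Slc25a18* had 217 to 243 CPM in astrocytes and 2.50 to 4.24 CPM in pericytes. The 3 lowest were *Slc38a11* at −11.11 (SE 0.097), the glutamine carrier *Slc1a5* (ASCT2) at −6.83 (SE 0.117) and asparagine synthetase, *Asns*, at −4.10 (SE 0.461). *Slc38a11* had 963 to 997 CPM in pericytes and 0.301 to 0.438 CPM in astrocytes, and *Slc1a5* had 117 to 136 and 0.835 to 1.08 CPM. *Asns* was low in both, at 3.89 to 4.99 and 0.081 to 0.331 CPM. *Slc38a11* and *Asns* passed the filter on low counts only through the pericyte sums, so in that test they could be called only as lower in astrocytes. With no such filter their log2 fold changes were −11.06 and −4.07. *Gls2*, with at most 0.278 CPM in astrocytes, also passed only through the pericyte sums. *Slc17a7* and *Slc25a13*, with at most 0.278 and 0.893 CPM in pericytes, passed only through the astrocyte sums. The counts of higher and lower genes include all of these, whose direction the filter had fixed. Members of the SLC1 and SLC38 families stood on both sides of the comparison, as did the genes tested at large.

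Over the 9 sums of astrocytes without an *Agt* UMI, astrocytes with at least 3 and pericytes in 3 libraries, the genes whose log2 level followed each member most closely were found among 7543 genes of at least 20 CPM. The nearest to *Slc1a2* were *Aqp4* and *Aldoc*, at a mean absolute difference of 0.06 and 0.08 on the log2 scale, of which *Aldoc* is one of the gate genes. *Papss2* and *Sfxn5* were nearest to *Slc1a3*, at 0.05 and 0.06. *Rufy3* and *Prex2* were nearest to *Slc1a4*, *Nat8f1* and *Chchd10* to *Glul* and *Lpcat3* and *Mettl25* to *Glud1*, at 0.05 to 0.09. *Igdcc4* and *Il18* were nearest to *Slc38a3*, at 0.05 and 0.06, and *Hsd11b1* and *Mro* to *Slc7a11*, at 0.12 and 0.13. *Slc38a1* and *Slc38a2* were below 20 CPM.

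Angiotensinogen (*Agt*), a secreted protein that astrocytes of some brain regions make in quantity, splits the astrocytes without using the members. Astrocytes with at least 3 *Agt* UMIs (Agt-high) numbered 1184, 963 and 1014 in libraries 1, 2 and 3, and those with none (Agt-0) 839, 456 and 627. Their median depths were close, at 9968, 10981 and 10394 UMIs against 10110, 10878 and 9670. Of 13705 genes tested, 1499 (10.9%) were called, 5.82% higher and 5.12% lower in Agt-high astrocytes. Of the 8 members tested, *Glud1* and *Slc7a11* rose, *Slc38a2* fell and 5 did not pass.

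*Glud1* stood at 809, 797 and 829 CPM in Agt-0 and at 1005, 957 and 983 CPM in Agt-high astrocytes. Every library was higher in Agt-high, with a log2 fold change of 0.28 (SE 0.061, adjusted p = 0.0017 by edgeR). *Slc7a11* stood at 461, 495 and 549 CPM in Agt-0 and at 607, 595 and 636 CPM in Agt-high astrocytes. All Agt-high values were above all Agt-0 values, with a log2 fold change of 0.30 (SE 0.064, adjusted p = 0.0013). *Slc38a2* stood at 5.68, 5.03 and 5.52 CPM in Agt-0, from 51, 26 and 33 UMIs, and at 3.19, 1.95 and 3.44 CPM in Agt-high astrocytes, from 41, 22 and 39 UMIs. It was lower in Agt-high in every library, with a log2 fold change of −0.91 (SE 0.233, adjusted p = 0.0082). With sums per mouse, *Glud1* and *Slc7a11* gave 0.23 and 0.29, with adjusted p = 0.016 and 0.019 by edgeR, and *Slc38a2* was too low to be tested. Mice with under 10 astrocytes in either class were left out of these sums. The sums also rest on the hashtag calls described below, of which a large part changed with the setting. Without library 2 or library 3 the adjusted p of *Glud1* was 0.07 and 0.08, at log2 fold changes of 0.29 and 0.30. *Slc38a2* had an adjusted p of 0.072 without library 2, at −0.75, 0.08 where 1 *Agt* UMI was enough, at −0.62, and 0.261 by DESeq2, at −0.94.

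The transporters of the SLC1 family, *Glul* and *Slc38a3* did not pass the test between the same cells. *Slc1a2* had 8769, 8932 and 8607 CPM in Agt-0 and 8278, 8579 and 8231 CPM in Agt-high astrocytes, a log2 fold change of −0.06 (SE 0.058). *Slc1a3* gave 0.02 (SE 0.059), *Slc1a4* 0.07 (SE 0.069), *Glul* −0.03 (SE 0.061) and *Slc38a3* −0.09 (SE 0.07). *Slc38a1* had 17, 4 and 2 UMIs in Agt-0 and 22, 0 and 4 UMIs in Agt-high astrocytes, most of them in library 1.

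Across finer classes of *Agt* UMIs, *Glud1* had 812 ± 16.6 CPM (SD, n = 3 libraries) at 0 UMIs, 863 ± 16.8 at 1 to 2, 954 ± 26.4 at 3 to 9 and 1078 ± 19.7 at 10 or more, higher at each step in every library. *Slc7a11* went from 502 ± 44.3 through 531 ± 21.8 and 607 ± 25.4 to 633 ± 15.4 CPM (SD, n = 3), also higher at each step in every library. *Slc38a2* went from 5.41 ± 0.336 CPM at 0 to 1.90 ± 0.25 CPM at 10 or more *Agt* UMIs, the latter from 5, 4 and 6 UMIs. *Slc1a2* stayed between 8633 and 8769 CPM in mean over the first 3 classes and was 7423 ± 240 CPM (SD, n = 3) in the last. Set against Agt-0 astrocytes, those with 10 or more *Agt* UMIs had less *Slc1a2*, with a log2 fold change of −0.24 and an adjusted p of 0.0041 by edgeR. At this cut 2486 of 12119 genes tested were called. *Glul* and *Slc38a3* were lower at 10 or more than at 0 *Agt* UMIs in every library, but neither was called at this cut. Their means went from 1814 to 1625 CPM and from 119 to 104 CPM.

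The astrocyte markers moved with this split as well. Of 12 markers, 9 were called higher in Agt-high astrocytes and 3 did not pass, with a median log2 fold change of 0.24, and their summed level was 8025 to 8121 CPM in Agt-0 and 9118 to 9521 CPM in Agt-high astrocytes, with no marker at 0 in either. Their part in the *Glud1* and *Slc7a11* results was not tested. Endothelial markers summed to 0.775 to 16.8 CPM in Agt-0 and 1.24 to 2.10 CPM in Agt-high, with up to 4 of 5 markers at 0, and pericyte markers to 104 to 138 and 116 to 124 CPM. Their part in the *Slc38a2* result was not tested. Oligodendrocyte markers summed to 9.87 to 10.0 CPM in Agt-0, 11.7 to 12.7 CPM in Agt-high and 14.6 to 19.1 CPM in astrocytes with 10 or more *Agt* UMIs. Oligodendrocyte precursor markers summed to 18.0 to 22.1, 21.3 to 23.1 and 26.7 to 28.2 CPM in the same order. The part of either list in the results on the members was not tested. Of the 36 related genes, 22 could be tested, of which 2 were higher, 1 was lower and 19 did not pass, where 10.9% of all genes tested were called. Their median log2 fold change was 0.07 against −0.0027 over all genes. *Slc3a2*, the heavy chain that partners *Slc7a11*, had 206 to 237 CPM in Agt-0 and 261 to 269 CPM in Agt-high astrocytes, a log2 fold change of 0.29 (SE 0.067, adjusted p = 0.0027 by edgeR). *Got2*, the mitochondrial aspartate aminotransferase, had 24.0 to 27.2 CPM and 18.5 to 20.8 CPM, a log2 fold change of −0.35 (SE 0.103, adjusted p = 0.023). The call on *Slc3a2* was lost without library 2 or library 3, with adjusted p = 0.055 and 0.163 by edgeR, and so was that on *Got2*, with 0.063 and 0.331, which was also lost by DESeq2 (0.467) and after thinning (0.098).

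**Figure D3:**
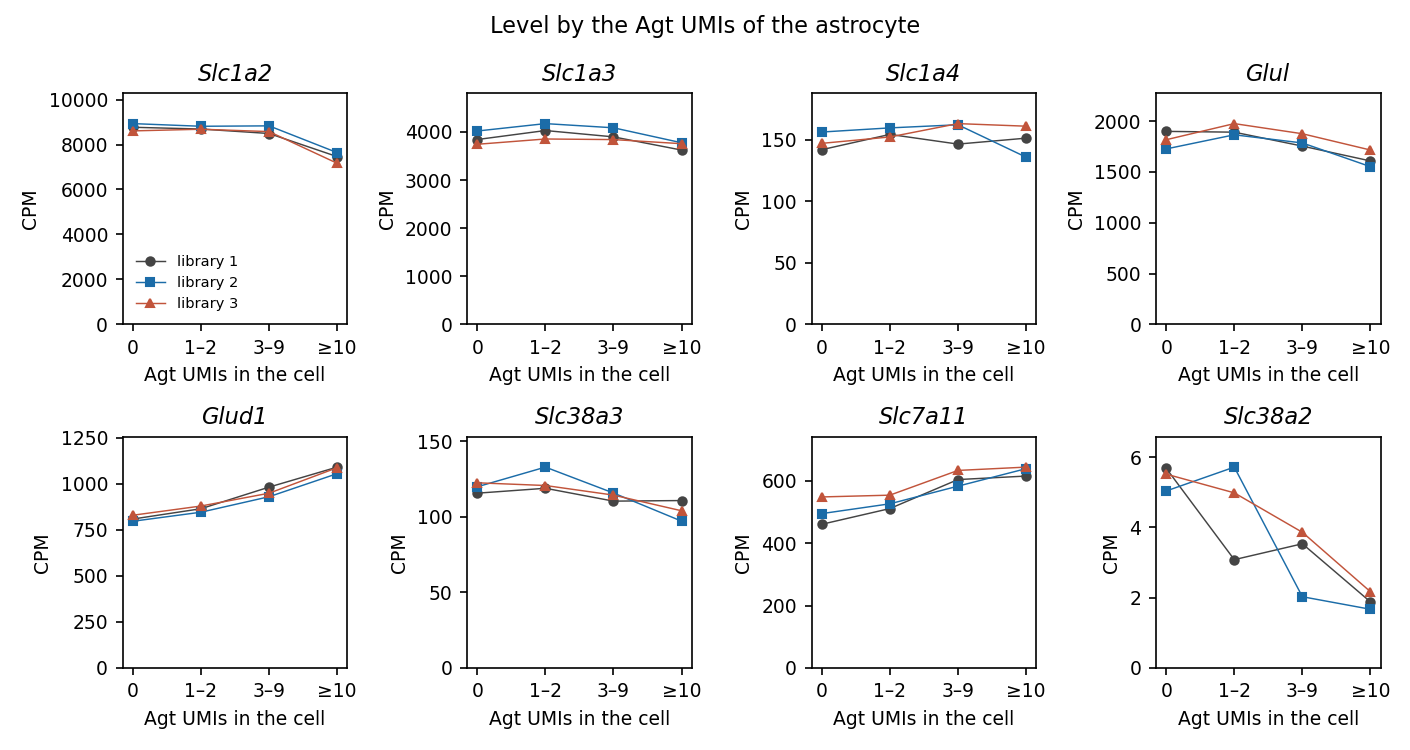
Level in CPM of 8 members in astrocytes grouped by their *Agt* UMIs (0, 1 to 2, 3 to 9, 10 or more), with 1 line per library. *Glud1* is higher at each step in all libraries and *Slc38a2* is lowest in the last class, at 1.67 to 2.17 CPM.

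**Figure D4:**
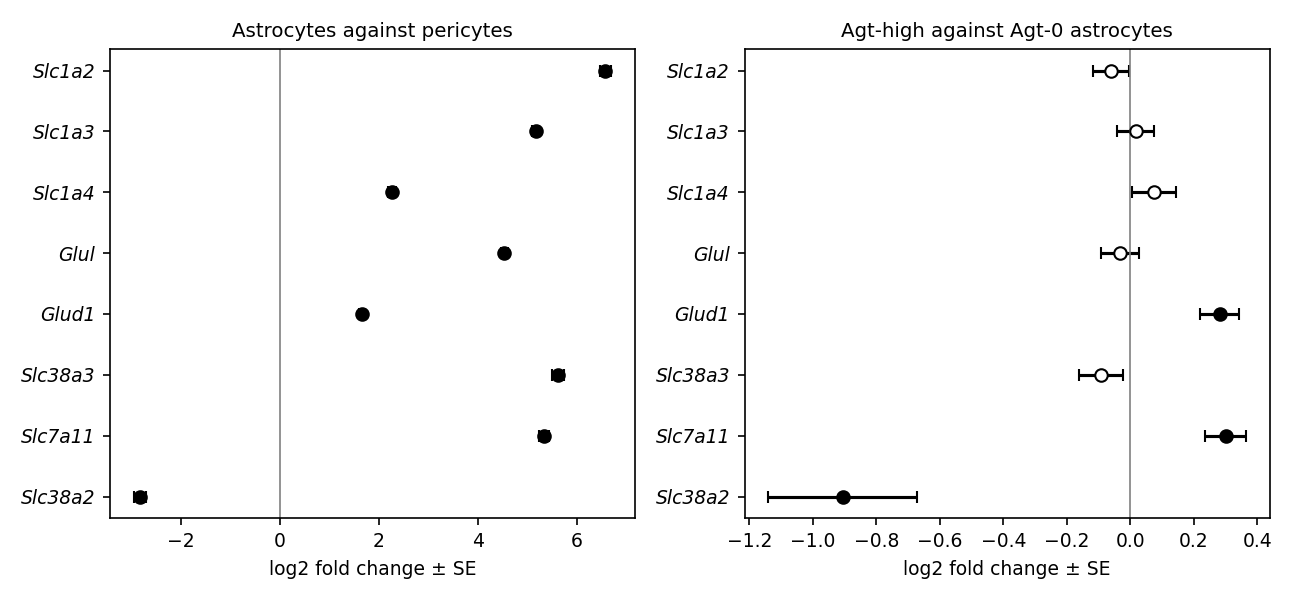
Log2 fold change ± SE of the 8 members tested between astrocytes and pericytes (left) and between Agt-high and Agt-0 astrocytes (right), on separate scales, with filled points for an adjusted p under 0.05. On the right, *Glud1*, *Slc7a11* and *Slc38a2* are filled, at 0.28, 0.30 and −0.91.

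To ask whether conditioning or recall changed these genes, astrocytes that their hashtags assigned to a listed mouse were summed per mouse. This left 1487 astrocytes of 16 mice, 4 in each group, with 30 to 179 astrocytes and 337165 to 2179896 UMIs per mouse. Library 2 held no NoFR mouse and library 3 no FC mouse, so FC and NoFR mice shared only library 1. The assignment depended on the hashtag settings. With cells of at least 100 genes entering the hashtag calls, 910 of these 1487 astrocytes (61.2%) kept their mouse, and with a hashtag quantile of 0.95 in place of 0.99, 715 (48.1%) did. The others were left without a listed mouse, and other astrocytes came in, for totals of 1759 and 1466. None moved to another mouse. The quantile decides only whether a cell has a single hashtag and not which hashtag is its highest, so it could not have moved a cell. With cells of at least 100 genes, NoFC mouse 3 went from 56 to 187 astrocytes and NoFR mouse 2 from 179 to 62. Barcodes called with a single hashtag numbered 1487, 1147 and 1519 in libraries 1, 2 and 3. Of these, 1251, 707 and 630 had a hashtag listed for a mouse of that library. Strict calls asked for at least 10 UMIs of the top hashtag and at least 3 times those of the second. Under them, 137 of the 1487 astrocytes (9.21%) kept their mouse and 1350 were left without one. The values per mouse below therefore rest on hashtag calls of which a large part changed with the setting. Of 9625 genes tested by edgeR with the library as a covariate, none (0%) were called for a difference among the 4 groups, with 365 at an unadjusted p under 0.05, and DESeq2 called 0, with 135. The 6 pairs of groups likewise gave 0 (0%) by either tool, with 361 to 453 genes at an unadjusted p under 0.05 by edgeR and 157 to 220 by DESeq2.

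None of the 7 members tested, which leaves out *Slc38a1* and *Slc38a2*, was called. Over the 42 tests of these 7 in a pair of groups, the smallest unadjusted p was 0.175 by edgeR, and it was 0.073 with cells of at least 100 genes and 0.12 with the quantile of 0.95. The log2 fold changes ran from −0.13 to 0.11 with SEs of 0.071 to 0.134, and the largest, −0.13 for *Slc1a4* in NoFR against FC, had an SE of 0.129. The mean *Slc1a4* level over all 4 mice was higher in NoFR (157 CPM) than in FC (151 CPM). In library 1, the only one with both groups, it was lower in NoFR, at 133 against 150 CPM. *Slc1a2* stood at 8136, 8657, 9658 and 8417 CPM in the NoFC mice, 8989, 9127, 8555 and 9178 CPM in the FC mice, 8467, 8176, 8795 and 9458 CPM in the NoFR mice and 8390, 8489, 8517 and 7964 CPM in the FR mice. All groups overlapped except that every FR mouse was below every FC mouse, and the FR against FC difference had a log2 fold change of −0.10 (SE 0.074, unadjusted p = 0.175 by edgeR). FR and FC mice overlapped with cells of at least 100 genes, at 8116 to 8923 against 8171 to 9311 CPM. They also overlapped with the quantile of 0.95, at 8089 to 8708 against 8247 to 8983 CPM. This pair was picked after its values were seen. How many of all genes tested part FR from FC mice without overlap was not counted. *Glud1* stood at 892, 936, 876 and 877 CPM in NoFC, 863, 895, 939.7 and 919 CPM in FC, 898, 928, 919.9 and 902 CPM in NoFR and 997, 934, 922 and 961 CPM in FR mice. The groups overlapped.

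*Slc1a3* was 3925 ± 102 CPM (SD, n = 4 mice) in NoFC mice and 4132 ± 101 CPM in FC mice, against 3866 ± 107 CPM in NoFR mice and 3957 ± 206 CPM in FR mice (n = 4 each). Every FC mouse was above every NoFR mouse, and that difference had an unadjusted p of 0.207 by edgeR, with the library as a covariate. These groups shared only library 1. The pair was picked after its values were seen, and the share of all genes tested that part the mice of a pair in this way was not counted. Every FC mouse was still above every NoFR mouse with cells of at least 100 genes (unadjusted p = 0.169 by edgeR), whereas these groups overlapped with the quantile of 0.95 (0.407). With cells of at least 100 genes, FC mice stood at 4092 to 4271 CPM. They were then also above every NoFC mouse (at most 4043 CPM) and every FR mouse (at most 3982 CPM). Those pairs had an unadjusted p of 0.199 and 0.292 by edgeR. *Glul* was 1902 ± 219.6, 1851 ± 64.2, 1920.0 ± 315 and 1843 ± 64.5 CPM (SD, n = 4) in the same order of groups, and *Slc7a11* was 547 ± 27.1, 548 ± 43.0, 542 ± 61.2 and 553 ± 72.6 CPM. *Slc1a4* ranged from 129 to 189.8 CPM and *Slc38a3* from 98.9 to 132 CPM over the 16 mice. *Slc38a2* had 59 UMIs in all, with 1 to 10 per mouse. *Slc38a1* had 29, of which 14 came from 1 NoFC mouse, 13 from the NoFR mice and 1 each from the FC and the FR mice, while 10 mice had none. Both entered the test when no filter on low counts was set. *Slc38a1* then had an unadjusted p of 0.0025 among the 4 groups, with an adjusted p of 0.418 by edgeR. Of its pairs, FC against NoFC (0.0032), FR against NoFC (0.0082), NoFR against FC (0.0092) and FR against NoFR (0.018) had an unadjusted p under 0.05, each with an adjusted p of at least 0.991. Its highest mouse also changed with the hashtag setting, from 16.6 CPM in a NoFC mouse to 30.6 CPM in a NoFC mouse with cells of at least 100 genes and 3.35 CPM in a NoFR mouse with the quantile of 0.95, where no NoFC mouse had a UMI. *Slc38a2* had no unadjusted p below 0.189 in a pair.

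**Figure D5:**
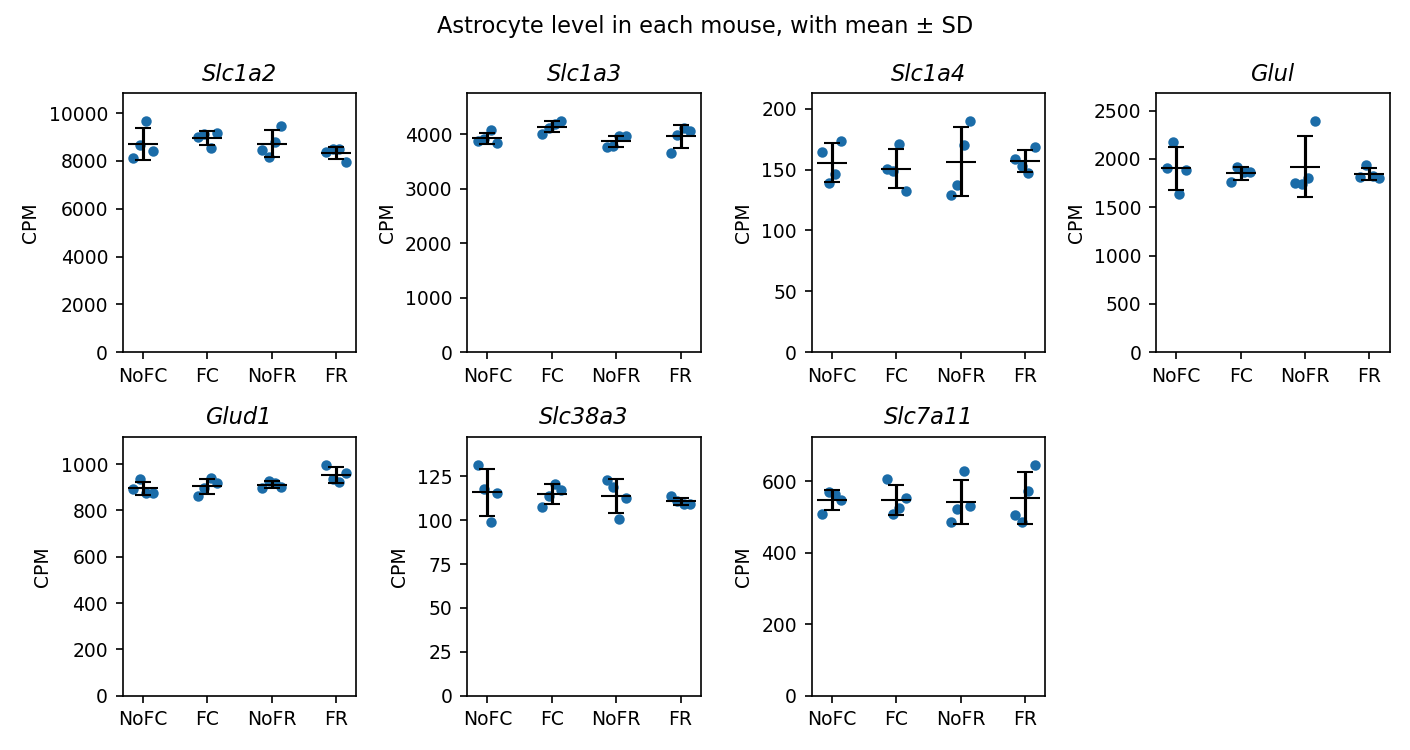
Astrocyte level in CPM of the 7 members tested in each of 16 mice, by group, with the mean and SD of 4 mice. The groups overlap for *Glul*, *Glud1*, *Slc1a4*, *Slc38a3* and *Slc7a11*, and *Glul* in 1 NoFR mouse stands at 2391 CPM.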

How the data were processed

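The authors deposited 10x UMI counts per gene and barcode for 3 libraries, aligned to mm10 with Cell Ranger (3.0 per the labels, 7.0.0 in the matrix header), and a table of which hashtag marked which mouse. Whether introns were counted and whether the counting used strand are not given in the sources used here. Exons of *Slc1a2* and *Glul* overlap those of *Gm13872* and *Teddm2* on the other strand.

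Barcodes were filtered and gated as described, with no doublet caller beyond the hashtags. UMI counts were summed per library and class, or per mouse after HTODemux (Seurat 5.3.0, quantile 0.99), without hashtags of under 100 UMIs in a library, a choice made because HTODemux stopped on 1 such hashtag. Sums were tested with edgeR 4.0.16 (quasi-likelihood, TMM, filterByExpr, Benjamini-Hochberg over all genes tested) in R 4.3.3. The 4 gate genes and, for the *Agt* split, *Agt* were left out of the tests. The edgeR test gives no SE, so the SE printed is the absolute log2 fold change over the square root of the test's F statistic. DESeq2 1.42.0 was an alternative. Libraries 1 to 3 pair the sums by construction, since both sums of a pair come from 1 pool of cells. The libraries are pools of different mice, and the block takes out their differences in level. The p-values between classes of library sums therefore measure how the class difference varies between pools, not between mice. The fits were tested on simulated counts.

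All 9 members were to be given. A pair of groups was to be described by its test where the unadjusted p was under 0.05. The pairs named for *Slc1a2*, *Slc1a3* and *Slc1a4* were added after their values were seen. Of the related genes, the 3 highest and 3 lowest called between classes and 1 each for *Agt* were named, and 2 nearest genes for each member. The members, lists and rules were chosen with earlier results of these data known. RefSeq promoters and GENCODE vM21 coordinates came from the reference files. Alternatives covered the block, tool, scaling, filters, gates, thinning, hashtag settings and leaving out each library or mouse. The test of single oligodendrocyte markers is not reported here.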

Additional observations from a re-analysis of the deposited data

Results flagged for a closer look

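Of 28 sets of 4 mice (7 members in 4 groups), 2 had a mouse far from the other 3, where chance flags about 5% of such sets. *Glul* was 2391 CPM in 1 NoFR mouse, against 1740 to 1802 CPM in the other 3, and this mouse had the fewest astrocytes, 30. The highest NoFR mouse was at 1875 CPM with cells of at least 100 genes in the hashtag calls and at 1923 CPM with a hashtag quantile of 0.95. *Glul* was 1940 CPM in 1 FR mouse with 49 astrocytes, against 1802 to 1820 CPM in the other 3.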

How the results depend on the processing

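The calls on all 8 members and the 6 related genes named between astrocytes and pericytes held under each alternative that could be run. Between Agt-high and Agt-0 astrocytes the number of genes called was 1499, and it was 684 with at least 1 *Agt* UMI, 2486 with at least 10, 561 by DESeq2, 372 with sums per mouse (5184 genes tested) and 900 to 1718 without each library in turn (900 without library 3). *Slc1a3* changed sign, to −0.052 with at least 10 *Agt* UMIs, −0.022 in astrocytes of 5000 to 20000 UMIs and −0.0091 after thinning, and *Glul* changed sign, to 0.014 with at least 1 *Agt* UMI and to 0.013 without library 1 (−0.055 to 0.013 without each library in turn), though neither passed the test in any of these. *Slc7a11* was called under each alternative. Without the replicate block, 12116 and 1221 genes were called in the 2 comparisons, and no call on a member changed.

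Among the 4 groups, no filter on low counts gave 46 genes called for any difference, 7 for FC against NoFC, 5 for FR against FC, 2 for FR against NoFC, 14 for FR against NoFR, 25 for NoFR against FC and 15 for NoFR against NoFC, none of them a member (*Slc38a1* and *Slc38a2* included). Leaving out each mouse in turn gave 0 to 3 genes for any difference (3 without NoFR mouse 1), 0 to 1 for FR against FC, 0 to 1 for FR against NoFC, 0 to 3 for FR against NoFR, 0 to 5 for NoFR against FC and 0 to 2 for NoFR against NoFC, again none of them a member. Strict hashtag calls could not be fitted, since no NoFC mouse kept 10 astrocytes. The cause of these changes was not tested. Hashtag calls, of which 48.1% to 61.2% kept their mouse under the settings that could be fitted and 9.21% under strict calls, limit the comparisons among groups. The low counts of *Slc38a1* and *Slc38a2* limit what can be said of them.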
